A study of Rattus norvegicus with 54 samples.

Results

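Cxcl12, Cxcr4 and Ackr3 code for a chemokine and the receptors that bind it. The 3 genes were taken by symbol from the count tables of 54 left ventricular libraries, and all 3 were found, among 40319 genes listed in the tables. The libraries come from 18 female athymic rats (F344/NJcl-rnu/rnu, 8 weeks old), which lack a thymus and with it most mature T cells, 1 week after surgery. The 6 sham rats had surgery without coronary occlusion, the 6 untreated MI rats had a permanent occlusion of the left anterior descending coronary artery, and the 6 cell sheet rats had the same occlusion and a sheet placed over the ischemic area. The sheet joined a layer of human blood-derived endothelial progenitor cells (EPCs) to a layer of smooth muscle cells (SMCs) derived from human marrow stromal cells. Treated hearts therefore also held human cells, whose own transcripts were not analysed here. The authors aligned reads to the rat assembly, and whether reads from the human cells were counted on rat genes was not tested. Each heart gave 1 library from the infarct zone (anterior wall), 1 from the border zone (lateral wall) and 1 from the remote zone (septum), all below the ligation level, and the sham pieces were cut at the same positions. The comparisons ask how far ischemic injury and the cell sheet moved the ligand and its receptors, and in which zone.

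CXCL12, also called SDF-1, is a chemokine that stromal, perivascular and endothelial cells secrete and that heparan sulphate holds on cell surfaces and matrix. CXCR4 is its G protein-coupled signalling receptor, present on leukocytes, progenitor cells and part of the endothelium, and the pair is known for drawing bone marrow-derived cells to ischemic tissue. ACKR3, formerly CXCR7, couples to arrestins in place of G proteins, takes CXCL12 up for degradation and so shapes its gradient, and is found on vascular endothelium among other cells.

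Levels are given as CPM, which is counts scaled to the library total after adjustment by trimmed mean of M values (TMM) factors. CPM does not correct for gene length, and levels are therefore compared between libraries for the same gene and never between genes. Total counts on genes per library ran from 12699204 to 23397754, and the lowest count of any of the 3 genes was 357, for Cxcr4 in a sham infarct zone library, so that counting error was small beside the spread between rats. The cardiomyocyte marker score (mean log2 CPM of 6 genes) ran from 3.62 to 12.4. The summed level of these genes was as low as 89.2 CPM in 1 cell sheet border zone, against 2376 CPM or more in untreated MI border zones. Sham rat 5 stood apart in all 3 zones, with a T cell score of 5.42 to 6.14 against −1.73 to 1.36 in the other sham libraries, in a strain that should hold few T cells. Its macrophage score of 7.47 to 7.79 also lay above the 4.51 to 5.53 of the other sham libraries. Cell sheet rat 1 had the lowest cardiomyocyte score, 3.62, in its border zone, where the other cell sheet libraries lay between 9.46 and 10.7, and its remote zone had a myofibroblast score of 8.32 against 3.09 to 5.77.

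The promoters of the 3 genes are shown because ischemia is part of the design, and both ligand and signalling receptor are known targets of hypoxia-inducible factor. The windows run from 250 bases before to 50 bases after the annotated start, from RefSeq on the GRCr8 assembly, and all 3 members were matched by symbol. The counts were made on another assembly, mRatBN7.2, and no count was read by these coordinates. Capitals mark a GC box (GGGCGG) or a TATA box (TATAAA), read on either strand.
Cxcl12, chr4:152060531-152060830, plus strand: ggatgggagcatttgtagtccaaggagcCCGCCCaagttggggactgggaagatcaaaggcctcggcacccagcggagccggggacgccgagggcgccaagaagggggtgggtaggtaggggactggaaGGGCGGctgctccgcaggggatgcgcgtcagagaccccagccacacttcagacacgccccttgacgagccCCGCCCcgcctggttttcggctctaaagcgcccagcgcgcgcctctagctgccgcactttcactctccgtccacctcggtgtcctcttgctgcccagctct
Cxcr4, chr13:42634239-42634538, minus strand: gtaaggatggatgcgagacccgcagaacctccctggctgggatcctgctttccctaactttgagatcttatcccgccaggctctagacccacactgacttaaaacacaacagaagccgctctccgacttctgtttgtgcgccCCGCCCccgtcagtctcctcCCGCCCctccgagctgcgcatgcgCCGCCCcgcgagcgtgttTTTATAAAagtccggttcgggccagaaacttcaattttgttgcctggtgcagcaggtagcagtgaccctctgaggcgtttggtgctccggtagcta
Ackr3, chr9:98247104-98247403, plus strand: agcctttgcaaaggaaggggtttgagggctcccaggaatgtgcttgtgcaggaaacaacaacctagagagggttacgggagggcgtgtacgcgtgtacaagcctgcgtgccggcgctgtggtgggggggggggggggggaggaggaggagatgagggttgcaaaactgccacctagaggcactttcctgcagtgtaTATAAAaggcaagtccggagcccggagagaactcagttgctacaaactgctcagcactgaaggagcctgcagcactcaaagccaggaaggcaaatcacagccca
The ACGTG form of the hypoxia response core, searched on both strands, was in none of the 3 windows. Of 33469 rat promoter windows of this length 19.3% hold that form. The GCGTG form was left out of the search, and its share of all windows was not counted. It can be read in all 3 sequences, as GCGTG in Cxcr4 and Ackr3 and as the reverse complement CACGC in Cxcl12. The search therefore does not show that the windows lack a hypoxia response core. The Cxcl12 window holds 3 GC boxes and no TATA box. The Cxcr4 window holds 3 GC boxes and a pair of overlapping TATA boxes on opposite strands, whose plus-strand match begins 44 bases before the start. The Ackr3 window holds no GC box and a single TATA box 54 bases before the start. GC boxes are in 33.1% and TATA boxes in 14.2% of all windows. A missing match says only that these letters are not in these 300 bases.

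Cxcr4 was the member that rose after infarction. In the infarct zone its level ran from 29.5 to 42.3 CPM in sham hearts (median 31.3) and from 43.5 to 87.1 CPM in untreated MI hearts (median 61.9). Every untreated MI library lay above every sham library, and the groups did not overlap, in either direction, for 14.1% of all genes tested there. The log2 fold change was 0.95 ± 0.18 (SE, 6 against 6 rats; 95% confidence interval 0.56 to 1.34), or 1.93-fold, with an adjusted p of 0.00172 from edgeR's quasi-likelihood test. Of the 3 members Cxcr4 alone passed in this zone, where 49.9% of all genes tested passed.

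In the border zone Cxcr4 ran from 28.5 to 43.5 CPM in sham hearts (median 31.1) and from 45.7 to 83.3 CPM in untreated MI hearts (median 60.8). The groups again did not overlap, which held for 11.5% of genes. The rise was 1.84-fold, a log2 fold change of 0.88 ± 0.16 (interval 0.54 to 1.22; adjusted p = 0.00199), and Cxcr4 was the 1 member that passed, against 41.7% of all genes. In the remote zone sham hearts ran from 27.3 to 42.5 CPM (median 33.1) and untreated MI hearts from 30.7 to 52.3 CPM (median 46.5), and the groups overlapped. That is a log2 fold change of 0.35 ± 0.15 (interval 0.02 to 0.68; adjusted p = 0.103). Sham rat 5 held the highest Cxcr4 of its group in the infarct and border zones. Without it the Cxcr4 log2 fold changes were 1.03 (infarct), 0.97 (border) and 0.42 (remote), with adjusted p-values of 0.000404, 0.00022 and 0.031.

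Cell composition changed with Cxcr4. Cardiomyocyte markers fell after infarction for 6 of 6 genes in infarct and border zones and 4 of 6 in remote zones. Of all genes tested 27.2%, 23.2% and 14.2% were lower in the infarct, border and remote zones. The neutrophil score was −1.34 to −0.22 in sham and 0.61 to 2.24 in untreated MI infarct zones, −0.69 to −0.19 and 0.10 to 4.08 in border zones, and −1.35 to −0.69 and −0.48 to 2.13 in remote zones. Macrophage markers rose for 3 of 6 genes in infarct, 4 of 6 in border and 1 of 6 in remote zones. Of all genes tested 22.7%, 18.4% and 11.7% were higher in these zones. The summed level of the 6 macrophage markers was 221 to 1774 CPM in sham infarct zones, the top value being that of the sham heart with T cell markers, and 873 to 1759 CPM in untreated MI infarct zones. With the cardiomyocyte score as a term in the fit, the Cxcr4 log2 fold change was 0.24 (adjusted p = 0.351) in the infarct zone and 0.42 (adjusted p = 0.0966) in the border zone. Score and treatment moved together, so that infarction and loss of cardiomyocyte RNA cannot be told apart in these fits. In bulk tissue, a larger number of Cxcr4-bearing cells and more Cxcr4 RNA per cell cannot be told apart either.

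**Figure D1:**
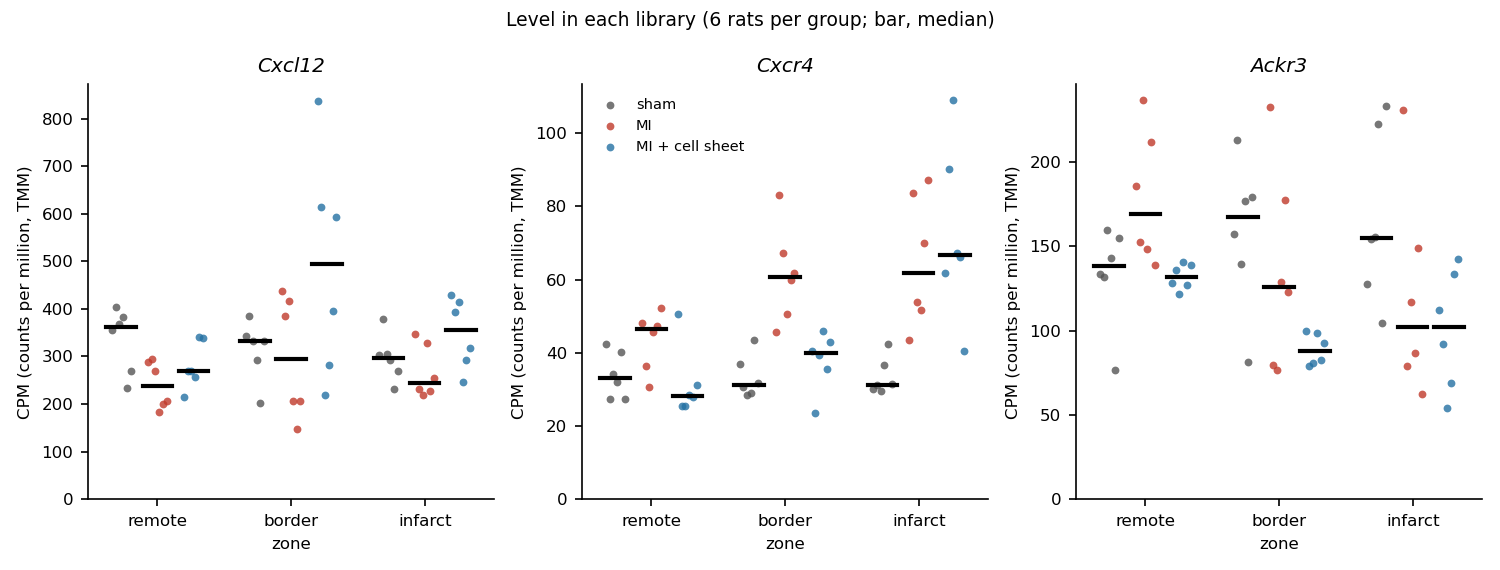
Level of Cxcl12, Cxcr4 and Ackr3 in each of the 54 libraries, in CPM on a linear axis from 0, by zone and treatment, with a bar at the median of 6 rats. Cxcr4 in untreated MI lies above sham without overlap in the infarct and border zones (medians 61.9 against 31.3 and 60.8 against 31.1), and Cxcl12 spreads from 220 to 837 in cell sheet border zones.

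Cxcl12 did not rise after infarction in any zone. In the infarct zone it ran from 232 to 378 CPM in sham hearts (median 297) and from 219 to 348 CPM in untreated MI hearts (median 244). This gave a log2 fold change of −0.15 ± 0.15 (interval −0.48 to 0.18; adjusted p = 0.435). In the border zone the ranges were 201 to 385 CPM in sham (median 333) and 146 to 438 CPM in untreated MI (median 295), a log2 fold change of −0.07 ± 0.28 (interval −0.67 to 0.53; adjusted p = 0.852). Scaling by library size without TMM factors turned both signs, to 0.12 and 0.14, and neither passed under that scaling. Leaving out sham rat 5 gave −0.21 (adjusted p = 0.246) and −0.17 (adjusted p = 0.604) with TMM factors.

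The border zones of the untreated MI hearts fell into a high and a low set for Cxcl12. Rats 1, 2 and 3 held 438, 384 and 416 CPM there, and rats 4, 5 and 6 held 206, 146 and 205 CPM. The same rats were ordered alike in the remote zone, at 270 to 294 CPM in rats 1 to 3 and 183 to 205 CPM in rats 4 to 6, but not in the infarct zone, where rats 2 and 3 were among the lowest at 232 and 219 CPM. Adipocyte scores in these border zones were 2.20, 0.88 and −1.10 in rats 1 to 3 and −1.89 to −0.74 in rats 4 to 6, which overlap. Other scores split the same rats without overlap. The neutrophil score was 2.79, 4.08 and 3.21 in rats 1 to 3 and 0.10 to 0.87 in rats 4 to 6, and the macrophage score was 7.87 to 8.10 and 6.76 to 7.19. The endothelial (7.01 to 7.39 and 7.50 to 7.58) and mural scores (6.02 to 6.40 and 6.49 to 6.62) were lower in rats 1 to 3. The part of these cells in the Cxcl12 levels was not tested.

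In the remote zone Cxcl12 was lower after infarction. Sham hearts ran from 234 to 404 CPM (median 363) and untreated MI hearts from 183 to 294 CPM (median 238), with sham rats 5 and 6 (234 and 269 CPM) inside the MI range. Cxcl12 had a log2 fold change of −0.48 ± 0.16 (interval −0.84 to −0.13; adjusted p = 0.0439), a level 1.40-fold lower, and Cxcl12 was the 1 member that passed, against 25.8% of all genes. This call was lost on leaving out any 1 of sham rats 1 to 4 or MI rats 3 to 6 (log2 fold changes of −0.52 to −0.42, adjusted p up to 0.0987) and on scaling by library size (log2 fold change −0.35, adjusted p = 0.13). It was also lost without the filter on low counts (−0.47, adjusted p = 0.0714) and with the adipocyte score in the fit (−0.37, adjusted p = 0.188), and with the cardiomyocyte score its sign turned (0.06, adjusted p = 0.846). Without sham rat 5 it was −0.56 (adjusted p = 0.00486).

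Ackr3 did not pass in any zone after infarction, but its differences ran in opposite directions in the infarct and remote zones. At the infarct, sham hearts ran from 105 to 233 CPM (median 155) and untreated MI hearts from 62.2 to 231 CPM (median 102), a log2 fold change of −0.46 ± 0.31 (interval −1.14 to 0.22; adjusted p = 0.234). Untreated MI rat 1 held the 231 CPM, far above the 62.2 to 149 CPM of the other MI rats, and without it the log2 fold change was −0.74 and passed (adjusted p = 0.0368). In the border zone the ranges were 81.5 to 213 CPM in sham and 76.5 to 233 CPM in untreated MI, with a log2 fold change of −0.22 ± 0.29 (interval −0.85 to 0.41; adjusted p = 0.567). Remote zones of sham hearts ran from 76.4 to 160 CPM (median 139) and untreated MI hearts from 139 to 237 CPM (median 169). The groups overlapped, and the log2 fold change was 0.43 ± 0.18 (interval 0.04 to 0.81; adjusted p = 0.0925). Without sham rat 5, whose remote zone held the 76.4 CPM, the log2 fold changes were −0.56 (infarct), −0.35 (border) and 0.31 (remote), with adjusted p-values of 0.132, 0.269 and 0.0672. With the cardiomyocyte score in the fit the sign turned in the infarct (0.45) and border (0.70) zones, with adjusted p-values of 0.498 and 0.107.

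The difference between zones was tested in its own right, with treatment, zone and their interaction in a fit with the rat as a block. The effect of infarction on Ackr3 was lower in the infarct zone than in the remote zone (difference of log2 fold changes −0.98 ± 0.23, interval −1.46 to −0.50; adjusted p = 0.00686). For Cxcr4 the effect was higher in the infarct zone than in the remote zone (difference 0.57 ± 0.21, interval 0.13 to 1.01; adjusted p = 0.0494), and without sham rat 5 the adjusted p was 0.0717 at a difference of 0.59. For Cxcl12 the difference was 0.33 ± 0.18 (interval −0.06 to 0.73; adjusted p = 0.185). Both calls stand against 28.9% of all genes. Border against remote gave differences of 0.51 for Cxcr4, −0.70 for Ackr3 and 0.32 for Cxcl12, with adjusted p-values of 0.172, 0.152 and 0.308, in a comparison in which 0% of 16475 genes passed, 3995 had an unadjusted p under 0.05 and DESeq2 called 1483. The border and infarct zones differed in this effect by −0.06 for Cxcr4, 0.27 for Ackr3 and −0.02 for Cxcl12, none of which passed, where 0% of 16766 genes did, 1430 had an unadjusted p under 0.05 and DESeq2 called 71.

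**Figure D2:**
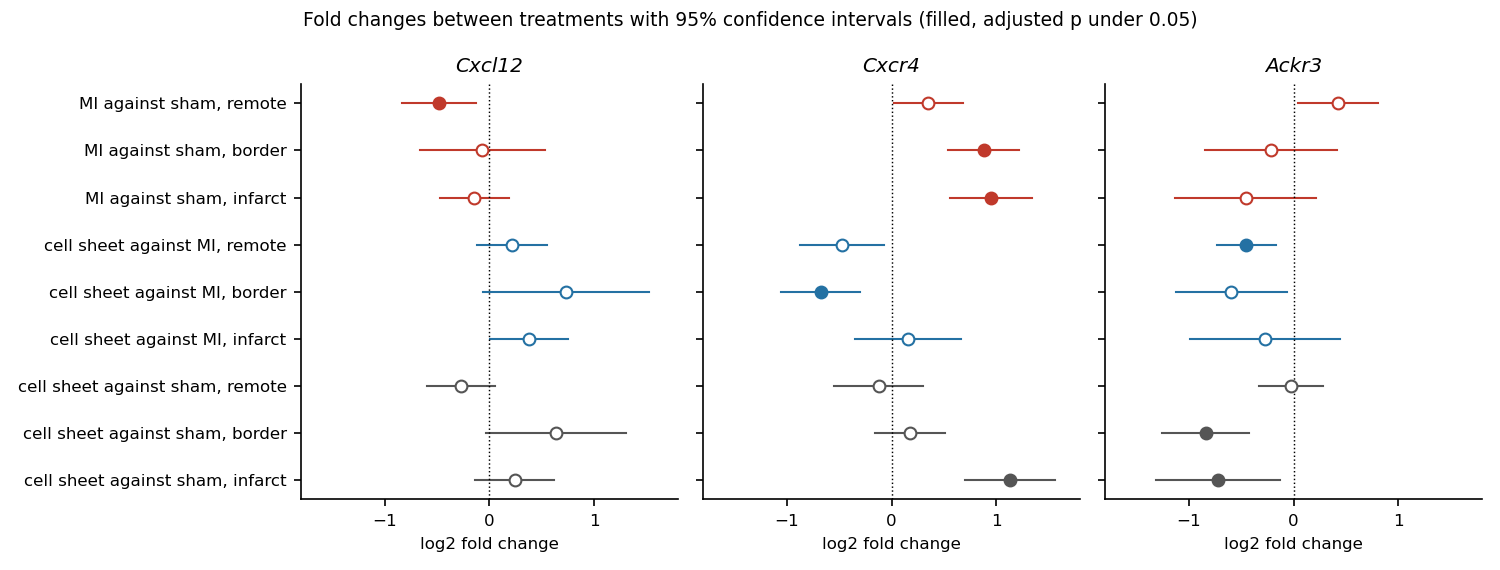
Log2 fold change of each member for 3 treatment comparisons in 3 zones, with 95% confidence intervals, on a linear axis centred on 0. Filled points passed at an adjusted p under 0.05: Cxcr4 in 4 comparisons, Ackr3 in 3 and Cxcl12 in 1, and the comparisons share groups, so that they are not independent.

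Between cell sheet and untreated MI hearts, Cxcr4 passed in the border zone and Ackr3 in the remote zone. No member passed in the infarct zone or on the sums of infarct and border libraries. Cxcr4 was lower in the border zone, where it ran from 23.6 to 46.0 CPM in cell sheet hearts (median 40.0) against 45.7 to 83.3 CPM in untreated MI hearts (median 60.8). The groups met only at cell sheet rat 4 (46.0) and MI rat 1 (45.7). The log2 fold change was −0.68 ± 0.17 (interval −1.06 to −0.30; adjusted p = 0.0187), a level 1.60-fold lower, and Cxcr4 was the 1 member that passed, against 18% of all genes. The cell sheet border zones lay close to sham in Cxcr4 (28.5 to 43.5 CPM), with a log2 fold change against sham of 0.18 ± 0.15 (interval −0.16 to 0.51; adjusted p = 0.361).

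Marker levels of other cells differed beside this fall. Mural cells are the pericytes and smooth muscle of vessels. Their score was 7.12 to 7.30 in cell sheet and 6.02 to 6.62 in untreated MI border zones, without overlap. With the cell sheet 4 of the 6 mural genes were higher, beside 8.47% of all genes tested. Of 6 T cell markers tested in the border zone 2 were lower with the cell sheet, beside 9.48% of all genes. The summed level of the 6 T cell markers was 6.33 to 13.0 CPM in cell sheet and 7.55 to 47.8 CPM in untreated MI hearts. The neutrophil score was −0.45 to 2.51 in cell sheet and 0.10 to 4.08 in untreated MI hearts. None of 6 macrophage markers passed, against 18% of all genes. The summed level of these markers ran from 488 to 2081 CPM in cell sheet and from 777 to 1854 CPM in untreated MI hearts. The adipocyte markers summed to 19.8 to 1426 CPM against 38.8 to 273 CPM. The part of these cells in the Cxcr4 difference was not tested beyond the fits with a score as a covariate. The call was lost with the adipocyte score (log2 fold change −0.61, adjusted p = 0.0942) and the endothelial score (−0.49, adjusted p = 0.154). With the cardiomyocyte score the call and direction were kept.

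In the infarct zone Cxcr4 of the cell sheet hearts was not lower in value. It ran from 40.4 to 109 CPM (median 66.7) in cell sheet hearts, a log2 fold change against untreated MI of 0.16 ± 0.23 (interval −0.35 to 0.67; adjusted p = 0.886). No gene passed in this comparison (0% of 16196 tested by edgeR, of which 1341 had an unadjusted p under 0.05, and 85 called by DESeq2), and no member could be called there. In the remote zone 5 cell sheet hearts held 25.3 to 31.2 CPM of Cxcr4 and rat 1 held 50.5 CPM, against 30.7 to 52.3 CPM in untreated MI. Cxcr4 had a log2 fold change of −0.47 ± 0.19 (interval −0.87 to −0.07; adjusted p = 0.0932), and without cell sheet rat 1 it was −0.67 (adjusted p = 0.00168). The remote macrophage score of that rat was 6.87, against 4.79 to 5.68 in the other cell sheet hearts. The effect of the sheet on Cxcr4 in the border zone was lower than in the infarct zone in value (difference of log2 fold changes −0.80 ± 0.29, interval −1.43 to −0.17, unadjusted p = 0.0172, adjusted p = 0.31). That comparison called 0% of 17275 genes in edgeR and 402 in DESeq2, and 2012 genes had an unadjusted p under 0.05.

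Ackr3 was lower with the cell sheet in the remote zone. Cell sheet hearts ran from 121 to 141 CPM (median 132) and untreated MI hearts from 139 to 237 CPM (median 169), overlapping between 139 and 141 CPM. The log2 fold change was −0.45 ± 0.13 (interval −0.73 to −0.17; adjusted p = 0.0335), a level 1.37-fold lower, and Ackr3 was the 1 member that passed, against 17.1% of all genes. It was lost on leaving out any 1 of cell sheet rats 2 to 6 or MI rats 1, 3 and 5 (log2 fold changes of −0.47 to −0.35, adjusted p up to 0.081). Without cell sheet rat 1 it was −0.45 (adjusted p = 0.0173). The call was also lost without the filter on low counts (adjusted p = 0.0548) and with the cardiomyocyte score in the fit (adjusted p = 0.0588). The mural score of these remote zones was 6.83 to 7.16 in cell sheet and 6.25 to 6.60 in untreated MI hearts, without overlap, and its part in the Ackr3 difference was not tested.

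In the border zone, as in the remote zone (121 to 141 CPM, SD 7.70), Ackr3 ran in a narrow range in the cell sheet group. The difference in spread was not tested. The 6 hearts ran from 79.3 to 99.9 CPM (median 87.8), a coefficient of variation of 10.4%, whereas untreated MI hearts ran from 76.5 to 233 CPM (median 126), with 44.1%. Against untreated MI this was a log2 fold change of −0.59 ± 0.24 (interval −1.12 to −0.07; adjusted p = 0.111). Cell sheet infarct zones ran from 54.1 to 142 CPM (median 102), with a log2 fold change of −0.27 ± 0.33 (interval −0.99 to 0.45; adjusted p = 0.856).

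Cxcl12 had the widest spread of the 3 genes in cell sheet border zones, where the 6 hearts held 220, 282, 396, 593, 614 and 837 CPM (rats 3, 4, 5, 6, 2 and 1). Untreated MI border zones ran from 146 to 438 CPM (median 295), so that 3 cell sheet hearts lay above every untreated MI heart. The log2 fold change was 0.73 ± 0.37 (interval −0.06 to 1.52; adjusted p = 0.188), and without cell sheet rat 1 it was 0.51 (adjusted p = 0.327). Cell sheet infarct zones ran from 245 to 430 CPM (median 355), with a log2 fold change of 0.38 ± 0.17 (interval 0.00 to 0.75; unadjusted p = 0.0483, adjusted p = 0.599). Cell sheet remote zones ran from 214 to 342 CPM (median 269), with a log2 fold change of 0.22 ± 0.15 (interval −0.12 to 0.55; adjusted p = 0.335). With the infarct and border libraries of each rat summed, Cxcl12 had a log2 fold change of 0.58 ± 0.22 (interval 0.10 to 1.06; unadjusted p = 0.0224, adjusted p = 0.111; 0.42 without cell sheet rat 1, adjusted p = 0.227), Cxcr4 one of −0.19 (adjusted p = 0.518) and Ackr3 one of −0.44 (adjusted p = 0.297). No member passed on the sums, where 12.1% of all genes did.

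In cell sheet border zones the hearts with the most Cxcl12 also had higher adipocyte, macrophage and B and plasma cell scores. Over the 54 libraries, centred on the group means, r of Cxcl12 was 0.48 with the adipocyte score. It was −0.06 with the macrophage and −0.14 with the B and plasma cell score. The 4 hearts with the most Cxcl12 (rats 1, 2, 6 and 5) had adipocyte scores of 5.83, 4.19, 6.52 and 5.65, and rats 4 and 3, with the least, had scores of 0.51 and −1.70. Macrophage scores were 8.30, 7.61, 7.83 and 7.42 in the same 4 hearts and 6.75 and 6.18 in rats 4 and 3, and B and plasma cell scores were −0.88 to 0.19 against −1.23 and −1.07. Rats 1 and 3 also differed in neutrophil (2.51 and −0.45), mesothelial (6.03 and 1.81) and myofibroblast scores (6.72 and 7.81). In these 3 scores rats 4 and 5 lay close together. The heart with the highest Cxcl12, rat 1, was also the one with the cardiomyocyte score of 3.62. Adipoq, which codes for the adipocyte hormone adiponectin, ran from 0 to 233 CPM in this group and from 0 to 0.156 CPM in sham border zones. With the adipocyte score in the fit, the Cxcl12 log2 fold change against untreated MI was −0.13 in the border zone and −0.02 on the sums, opposite in sign to the values without it. The macrophage, B and plasma cell, neutrophil, mesothelial and myofibroblast scores were not tried in the fit.

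Against sham, cell sheet hearts had higher Cxcr4 and lower Ackr3 in the infarct zone. Cxcr4 ran from 40.4 to 109 CPM against 29.5 to 42.3 CPM in sham, with an overlap of cell sheet rat 6 (40.4) and sham rat 5 (42.3). Cxcr4 had a log2 fold change of 1.13 ± 0.20 (interval 0.70 to 1.57; adjusted p = 0.000751), or 2.19-fold. Ackr3 ran from 54.1 to 142 CPM against 105 to 233 CPM in sham, a log2 fold change of −0.73 ± 0.27 (interval −1.32 to −0.13; adjusted p = 0.0371), a level 1.65-fold lower. These were 2 of 3 members, against 57.9% of all genes, and the Ackr3 call was lost on leaving out any 1 of cell sheet rats 1 to 4 or sham rats 2, 3, 4 and 6 (log2 fold changes of −0.76 to −0.60, adjusted p up to 0.085). Without sham rat 5 the values were 1.18 for Cxcr4 (adjusted p = 0.000509) and −0.84 for Ackr3 (adjusted p = 0.0117). The cardiomyocyte score was 5.76 to 11.3 in these cell sheet libraries and 10.6 to 12.4 in sham. With it in the fit, the Cxcr4 log2 fold change was 0.30 (adjusted p = 0.291) and Ackr3 turned sign, to 0.06 (adjusted p = 0.947), and with the adipocyte score they had 0.74 (adjusted p = 0.0792) and −0.28 (adjusted p = 0.605).

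In the border zone Ackr3 of every cell sheet heart (79.3 to 99.9 CPM) lay below every sham heart other than rat 5 (139 to 213 CPM), whose level was 81.5 CPM. The log2 fold change was −0.84 ± 0.19 (interval −1.26 to −0.42; adjusted p = 0.00429), a level 1.79-fold lower, and Ackr3 was the 1 member that passed, against 43.6% of all genes. Without sham rat 5 it was −0.98 (adjusted p = 4.44e-05), and with the adipocyte score in the fit −0.92 (adjusted p = 0.113). Cxcl12 in the border zone had a log2 fold change of 0.63 ± 0.31 (interval −0.03 to 1.30; adjusted p = 0.112; 0.42 without cell sheet rat 1, adjusted p = 0.256) and in the infarct zone of 0.24 ± 0.17 (interval −0.14 to 0.62; adjusted p = 0.245). In the remote zone the log2 fold changes against sham were −0.27 for Cxcl12 (interval −0.60 to 0.05), −0.12 for Cxcr4 (interval −0.55 to 0.30; −0.32 without cell sheet rat 1) and −0.03 for Ackr3 (interval −0.33 to 0.28), and none passed in a comparison that called 1 gene of 15157 (0.0066%). The 3 treatment comparisons of a zone share their groups and are not independent of each other.

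Within a heart, the zones were compared with the rat as a block. In sham hearts, where the zones differ in position only, Ackr3 was 1.24-fold higher at the infarct position than in the septum (log2 fold change 0.31 ± 0.09, interval 0.12 to 0.50; adjusted p = 0.0152), although 4 of 6 rats showed this direction, and 32.4% of all genes passed. Without sham rat 4 or 6 it was 0.25 and did not pass. Sham Cxcr4 had log2 fold changes of −0.00 (infarct against remote) and −0.02 (border against remote, a comparison that called 25.7% of genes), and sham Cxcl12 of −0.16 and −0.09, none of which passed.

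In untreated MI hearts the receptors differed between infarct and remote zone in opposite directions. From remote to infarct zone Cxcr4 rose in 5 of 6 hearts, by 1.48-fold (log2 fold change 0.57 ± 0.17, interval 0.18 to 0.95; adjusted p = 0.0311). Ackr3 was lower in the infarct zone in 5 of 6 hearts, by 1.60-fold (log2 fold change −0.68 ± 0.19, interval −1.10 to −0.25; adjusted p = 0.0243), the exception being rat 1. These were 2 of 3 members, against 36.4% of all genes, and each call was lost on leaving out 1 of some rats, which were rats 2, 3, 5 and 6 for Cxcr4 (log2 fold changes of 0.44 to 0.56) and rats 3, 4 and 6 for Ackr3 (−0.66 to −0.58). Border against remote zone gave 0.49 for Cxcr4 (5 of 6 hearts higher) and −0.48 for Ackr3 (1 of 6 higher), with adjusted p-values of 0.104 and 0.176, where 0% of 15738 genes passed, 5943 had an unadjusted p under 0.05 and DESeq2 called 4651. Cxcl12 differed from the remote zone by 0.17 (infarct) and 0.22 (border) on the log2 scale, without passing.

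In cell sheet hearts the step in Cxcr4 was larger in value. The infarct zone exceeded the remote zone in 6 of 6 hearts, by 2.28-fold (log2 fold change 1.19 ± 0.27, interval 0.56 to 1.82; adjusted p = 0.00767), while the border zone did not pass (0.33 ± 0.15, adjusted p = 0.0944), other than without rat 1 (0.44, adjusted p = 0.0195). The infarct zone also exceeded the border zone in Cxcr4 in 5 of 6 hearts (log2 fold change 0.90 ± 0.26, unadjusted p = 0.011, adjusted p = 0.3), in a comparison that called 0% of 16343 genes in edgeR and 602 in DESeq2, with 2213 at an unadjusted p under 0.05. Ackr3 was lower in the border than in the remote zone in 6 of 6 hearts and without overlap, as held for 4.95% of all genes, 79.3 to 99.9 CPM against 121 to 141 CPM (log2 fold change −0.53 ± 0.07, interval −0.69 to −0.37; adjusted p = 0.00294). Cxcr4 was the 1 member that passed between infarct and remote zone, against 62.8% of all genes, and Ackr3 the 1 member between border and remote zone, against 56.4%. Cxcl12 was higher in the border than in the remote zone in 5 of 6 hearts, with a log2 fold change of 0.70 ± 0.29 (interval 0.02 to 1.38; adjusted p = 0.0721), and of 0.44 without rat 1 (adjusted p = 0.127). Whether the steps between zones differ between cell sheet and untreated MI hearts was tested as the interaction, and no member passed there (adjusted p from 0.231 to 0.94 over the remote contrasts). The infarct-to-remote interaction called 0% of 16902 genes and the border-to-remote interaction 0% of 16784, where 4190 and 3430 genes had an unadjusted p under 0.05 and DESeq2 called 1802 and 1183.

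**Figure D3:**
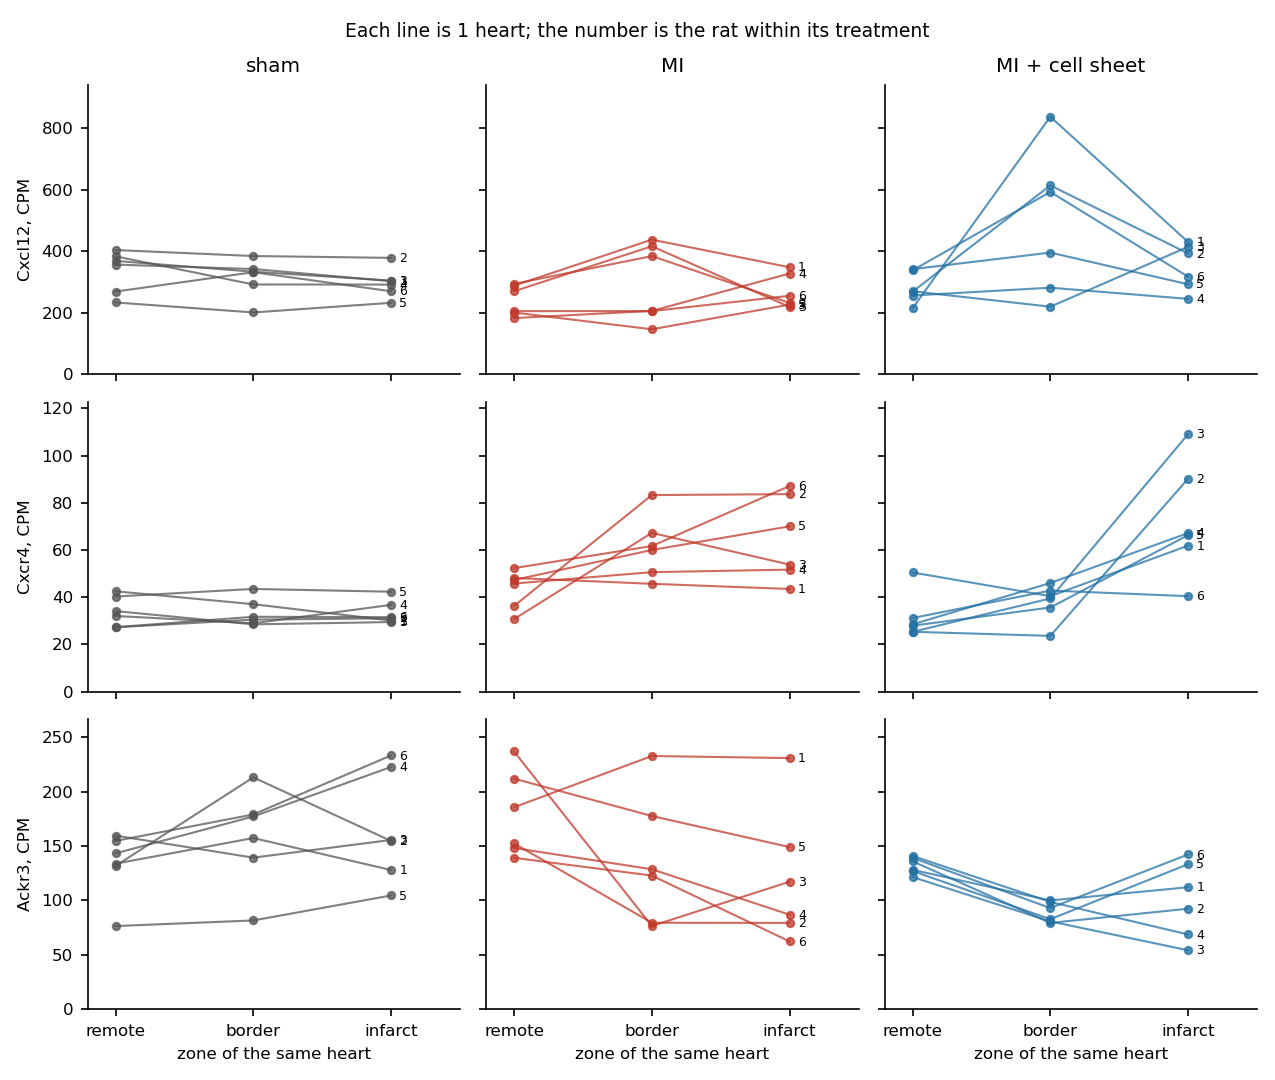
Levels in CPM across the 3 zones of each heart, with 1 line per rat, its number at the right, and a linear axis from 0 shared along each row. Cxcr4 climbs from remote to infarct zone in all 6 cell sheet hearts, and Ackr3 of the cell sheet hearts drops from 121 to 141 CPM in the remote zone to 79.3 to 99.9 CPM in the border zone.

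Ordered by mean, Cxcr4 was highest in cell sheet infarct zones (72.5 CPM), untreated MI infarct zones (65.0) and untreated MI border zones (61.4), which did not differ beyond their spread. The step from there to untreated MI remote zones (43.4 CPM) was larger than the SD of either group, and the other 5 groups followed down to 31.5 CPM in cell sheet remote zones with no such step. Ackr3 ran from 179 CPM in untreated MI remote zones to 89.0 CPM in cell sheet border zones, and Cxcl12 from 490 CPM in cell sheet border zones to 240 CPM in untreated MI remote zones. For both genes every step between neighbours was smaller than the larger of the 2 SDs.

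Ratios between the members leave out the scaling of libraries but for an offset of 0.1 CPM, and their differences were tested with exact permutation tests over rats (2-sided, 6 against 6, smallest possible p = 0.00216, adjusted over 27 comparisons). The log2 Cxcl12/Cxcr4 ratio was lower in untreated MI than in sham in each zone, with differences of −1.07 (infarct), −1.03 (border) and −0.83 (remote), each at an adjusted p of 0.0487 (exact permutation test). In the border zone cell sheet hearts had a higher ratio than untreated MI hearts by 1.38 (adjusted p = 0.0487, exact permutation test), with a median log2 ratio of 3.63 against 2.11 in untreated MI and 3.36 in sham. Against sham, the cell sheet ratio differed by −0.83 in the infarct zone (adjusted p = 0.0487, exact permutation test).

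The log2 Ackr3/Cxcr4 ratio, which sets the scavenger against the signalling receptor, had a median of 2.35 in sham infarct zones, 0.92 in untreated MI and 0.45 in cell sheet hearts. Its difference from sham was −1.46 in untreated MI (adjusted p = 0.0487) and −1.81 in cell sheet hearts (adjusted p = 0.039, both exact permutation tests). In cell sheet border zones it was −0.95 against sham (adjusted p = 0.0487, exact permutation test), and in the remote zone no treatment pair differed by more than 0.16. The log2 Cxcl12/Ackr3 ratio of cell sheet border zones (1.45 to 3.07) lay above that of sham (0.72 to 1.30) without overlap, a difference of 1.29, and that of the infarct zone differed by 0.97. For remote zones untreated MI differed from sham by −0.92 and cell sheet from untreated MI hearts by 0.65. Their adjusted p-values were 0.039, 0.0487, 0.039 and 0.0438 (exact permutation tests). In all, 12 of the 27 differences passed, each close to the threshold, and each of the 12 was lost on leaving out at least 9 of its 12 rats in turn (adjusted p up to 0.0974, exact permutation test).

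Across the 6 rats of a group, no relation between ligand and receptors was detectable. Of 27 relations (3 pairs in 9 groups) none passed after adjustment, with a lowest adjusted p of 0.56 for Pearson's r and 0.45 for Spearman's rho (exact permutation of pairings). The strongest single value for ligand and receptor was r = 0.90 between Cxcl12 and Ackr3 in sham border zones (rho = 0.54, unadjusted exact p = 0.08), and without the 2 rats farthest from the median it was −0.51. Cxcr4 and Ackr3 had r = −0.82 in untreated MI border zones (rho = −0.89, unadjusted exact p = 0.04 and 0.03), −0.77 in cell sheet infarct zones and 0.71 in cell sheet border zones. Without the 2 farthest rats these became −0.50, −0.24 and 0.60. Over all 54 libraries, which share hearts, r was −0.17 between Cxcl12 and Cxcr4, −0.14 between Cxcl12 and Ackr3 and −0.47 between Cxcr4 and Ackr3. Centred on the 9 group means the same values were −0.21, 0.13 and −0.54. They are given as a description, since the libraries are not independent.

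The genes whose levels ran most like each member were taken as the 5 with the highest r of log2 CPM over the 54 libraries, among 13290 genes. For Ackr3 they were Emcn (0.87), Tmem252 (0.85), Thbd (0.85), LOC102555145 (0.84) and Kitlg (0.84). Emcn codes for the endothelial sialomucin endomucin and Thbd for thrombomodulin, the endothelial thrombin receptor. After centring on the group means the 5 were Slc43a3, Kcnj8, Thbd, Tek and LOC102555145 (r from 0.84 to 0.85), where Tek is the angiopoietin receptor Tie2.

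For Cxcr4 the 5 genes over the 54 libraries were Ftl1 (0.90), Hgf (0.90), Npc2 (0.89), Dtx4 (0.89) and Fam3c (0.88). Ftl1 codes for ferritin light chain, Hgf for hepatocyte growth factor and Npc2 for a lysosomal cholesterol carrier. After centring they were Wwp2, Dtx4, Npc2, Sh3gl1 and Gipc1 (0.75 to 0.77). For Cxcl12 they were Steap4 (0.79), Aox3 (0.75), Efnb1 (0.75), St6galnac2 (0.74) and Mme (0.74), and after centring Steap4, St6galnac2, Acss3, Ggt5 and Mme (0.74 to 0.79). Steap4 codes for a metalloreductase and Mme for the membrane protease neprilysin.

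Against the marker lists, the same description gave a different partner for each member. Centred on the group means, Ackr3 ran with the endothelial (r = 0.70), cardiomyocyte (0.49) and arterial endothelial (0.42) scores. It ran against the B and plasma cell (−0.53), macrophage (−0.46), T cell (−0.45) and myofibroblast (−0.44) scores. Cxcr4 ran with the macrophage (0.54), myofibroblast (0.53), B and plasma cell (0.47) and fibroblast (0.46) scores. It ran against the cardiomyocyte (−0.60) and endothelial (−0.52) scores. Cxcl12 ran with the neutrophil (0.58) and adipocyte (0.48) scores and against the myofibroblast score (−0.58). Of the 6 endothelial markers 1 was lower in untreated MI infarct zones, beside 27.2% of all genes, with a median log2 fold change of −0.12 over the list.

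**Figure D4:**
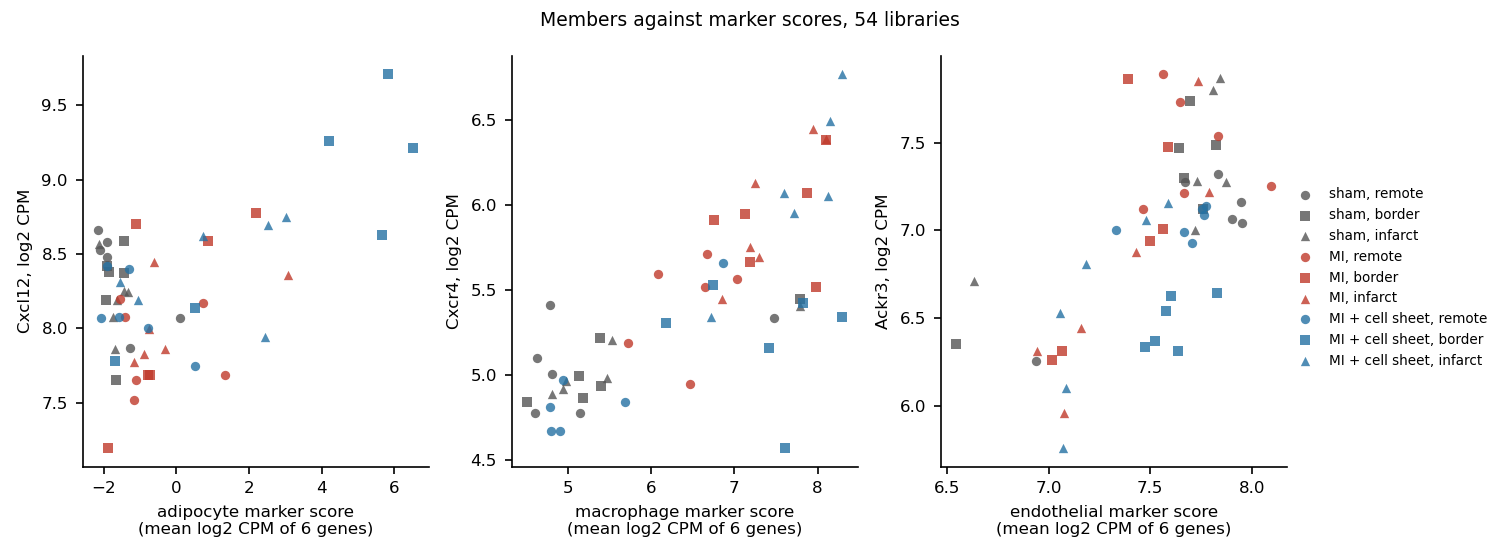
Level of each member in log2 CPM against a marker score, which is the mean log2 CPM of 6 genes, for the 54 libraries by treatment (colour) and zone (shape). Cxcl12 is higher where the adipocyte score is higher, Cxcr4 is higher where the macrophage score is higher, and Ackr3 is higher where the endothelial score is higher (r centred on the group means of 0.48, 0.54 and 0.70). The neutrophil score, not drawn, had a higher centred r with Cxcl12 (0.58).

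The wider pathway was followed through 70 genes in 7 lists, of which 69 were tested in most comparisons. After infarction 26 rose and 9 fell in infarct zones, 25 and 7 in border zones and 16 and 4 in remote zones, with a median log2 fold change of 0.50, 0.35 and 0.11 against −0.02, −0.02 and −0.04 over all genes tested. Among all genes tested 22.7% were higher and 27.2% lower in infarct zones, 18.4% and 23.2% in border zones and 11.7% and 14.2% in remote zones. As shares the 35, 32 and 20 of 69 genes stand beside the 49.9%, 41.7% and 25.8% of all genes. The infarct and border counts include Mmp9, which passed the filter on low counts largely through the untreated MI group. Without sham rat 5 they were 60, 57 and 48 genes, where 64.8%, 60.8% and 46.5% of all genes passed. Cell sheet against untreated MI called none of them in the infarct zone, 4 higher and 3 lower in the border zone, and 4 higher and 9 lower in the remote zone, which became 48 genes in all without cell sheet rat 1, where 41.6% of all genes passed. All genes gave 8.47% higher and 9.48% lower in the border zone and 10.3% and 6.79% in the remote zone. Groups did not overlap for 8.24% of genes after infarction in the remote zone, and with the cell sheet for 9.71% in the border and 4.89% in the remote zone.

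Of the proteases that trim CXCL12, 6 were tested. Since Mmp9 passed the filter on low counts largely through the untreated MI group, no count over this list is read. Dpp4, the dipeptidyl peptidase that inactivates the chemokine, did not pass (log2 fold changes of −0.64, −0.59 and −0.14). Mmp14, a membrane-bound matrix metalloproteinase, was 77.5 ± 14.1 CPM (SD, n = 6) in sham and 398 CPM in untreated MI infarct zones (log2 fold change 2.36, adjusted p = 4.3e-05). Mmp2, the gelatinase that MMP14 activates, rose in every zone (log2 fold changes of 1.52 in infarct, 1.48 in border and 1.04 in remote zones). Ctsk, cathepsin K, had 2.57, 2.80 and 2.04, each without overlap between the groups. Mmp9, gelatinase B, was low in sham hearts (0.258 to 0.288 CPM on average) and had log2 fold changes of 3.01 and 5.45 in the infarct and border zones.

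Heparan sulphate carriers, which hold the chemokine at the cell surface, had 6 of 8 genes up and 1 down after infarction in infarct zones, 5 and 1 in border zones and 1 and 1 in remote zones, beside the 22.7%, 18.4% and 11.7% of all genes that were higher. Sdc1, syndecan 1, had log2 fold changes of 2.87 in the infarct and 2.57 in the border zone. Gpc1, glypican 1, fell in all 3 zones (log2 fold changes of −0.99, −0.88 and −0.62). Hspg2, the basement membrane proteoglycan perlecan, was higher with the cell sheet, at 1474 CPM against 689 CPM in untreated MI border zones without overlap (log2 fold change 1.12, adjusted p = 0.0034).

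Among other ligands of the receptors, Cxcl11, which ACKR3 also binds, was lower after infarction. It averaged 40.1 CPM in sham against 7.68 CPM in untreated MI infarct zones (log2 fold change −2.40, adjusted p = 0.0079) and fell by 1.85 on the log2 scale in the border zone, without overlap in either, although the sham mean rests on a wide spread (SD 36.3 CPM). Adm, adrenomedullin, a peptide that ACKR3 scavenges, rose in all 3 zones (log2 fold changes of 0.87, 0.73 and 0.55). Mif, a cytokine that binds CXCR4, was lower with the cell sheet in the border zone (55.5 against 79.1 CPM, log2 fold change −0.49, adjusted p = 0.0017) and the remote zone (−0.55, adjusted p = 0.025). Cxcl14 and Hmgb1 did not pass in any comparison of treatments within a zone.

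Of the receptor partners and scavengers, 3 of 8 rose in infarct zones, 3 in border zones and 4 in remote zones. The shares of all genes that were higher there were 22.7%, 18.4% and 11.7%. Cd164, the sialomucin endolyn that associates with CXCR4, rose in all 3 zones (0.34, 0.34 and 0.32) and was lower with the cell sheet in the border and remote zones (−0.36 and −0.38). The atypical receptors Ackr1 and Ackr2 were lower with the cell sheet in the remote zone (−0.93 and −0.77). Cd74, a MIF receptor, did not pass, with log2 fold changes of −1.04, −0.99 and −1.54 after infarction.

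Downstream of the receptors, of 14 G protein, kinase and arrestin genes 4 rose and 1 fell in the infarct zone, and Usp14, the deubiquitinase that acts on CXCR4, fell in all 3 zones (−0.63, −0.38 and −0.47), each without overlap. Grk2, the kinase that phosphorylates activated receptors, had log2 fold changes of 0.07, −0.10 and −0.30 after infarction and did not pass. Of 18 signalling genes 4 rose and 1 fell in the infarct zone. Both lists stand beside the 22.7% of all genes that were higher and the 27.2% that were lower there. Plcb2, phospholipase C beta 2, had 2.25 and Rac1, a small GTPase of cell migration, 0.42. With the cell sheet, Elmo1, which works with Dock2 upstream of Rac, was lower in the remote zone without overlap (−0.86, adjusted p = 0.006).

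Hypoxia factors and targets went both ways. In the infarct zone 3 of 10 rose and 4 fell after infarction, beside 22.7% higher and 27.2% lower over all genes tested. Hif1a rose by 0.81 there and by 1.31 in the border zone, and Ca9, carbonic anhydrase 9, by 2.69 and 2.86. Vegfa (−1.22 and −1.05), Egln1 (−1.13 and −1.14) and Egln3 (−1.39 and −1.06), the latter both prolyl hydroxylases that mark HIF for degradation, fell in the same zones. None of the 10 passed with the cell sheet in the infarct zone.

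**Figure D5:**
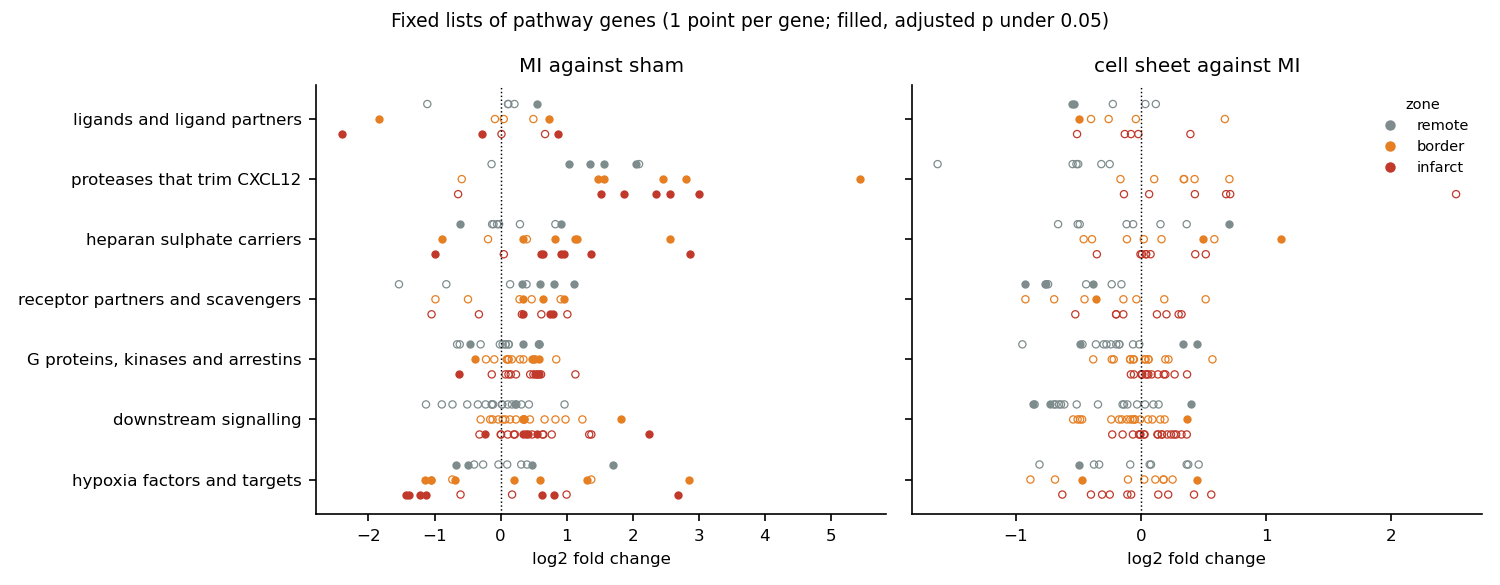
Log2 fold changes of the genes of 7 fixed pathway lists, with 1 point per gene and a row per zone within each list, for untreated MI against sham (left) and cell sheet against untreated MI (right). Filled points passed at an adjusted p under 0.05. In the infarct and border zones the proteases Mmp2 and Ctsk sit to the right of 0 after infarction, while Dpp4 sits to the left and is not called. No gene is filled in the infarct zone with the cell sheet.

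Other CXC chemokines and receptors were followed as a separate list of 16 genes, of which 13, 12 and 9 passed the filter on low counts in the 3 zones after infarction. Since such genes pass largely through the group in which they are high, no count over them is read. Cxcl6, a neutrophil chemokine, averaged 0.0631 CPM in sham and 7.16 CPM in untreated MI infarct zones, and Pf4, platelet factor 4, 23.2 and 73.4 CPM (log2 fold change 1.66, adjusted p = 0.0014). Cxcl16, a transmembrane chemokine of macrophages and endothelium, was lower with the cell sheet in the border zone without overlap (47.7 against 82.4 CPM, log2 fold change −0.77, adjusted p = 0.0039). Cxcr1 and Ppbp did not pass the filter in any treatment comparison.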

How the data were processed

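RNA was measured in 54 left ventricular libraries, 6 rats for each of 3 treatments and 3 zones. Per the study's methods, flash-frozen tissue gave poly-A libraries that were sequenced in pairs, and the authors aligned reads with STAR to mRatBN7.2 with NCBI annotation. The authors deposited raw counts per gene, 1 table per library, and the counter and strand setting are not given in the sources used here. The labels number the libraries of a group as technical replicates, whereas the methods describe separate hearts. No 2 libraries of a group agreed within sampling noise (chi-square per degree of freedom 7.97 to 539 over 135 pairs), and p-values measure the spread between these libraries. The 5 summary lines per table (17.0% to 42.8% of counts) were left out. Totals on genes were 12699204 to 23397754, and counting error alone is not an estimate of biological spread.

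Counts were scaled by TMM, filtered with filterByExpr and tested with edgeR 4.0.16 (quasi-likelihood F test, R 4.3.3), with Benjamini-Hochberg adjustment over all genes tested and a threshold of 0.05. Treatments were compared within a zone, and zones within a treatment with the rat as a block, since the 3 zones come from 1 heart (median r 0.387 between zones of the same heart). Sums of infarct and border libraries per rat, and interactions of treatment and zone, were fitted likewise. Ratios (offset 0.1 CPM) and correlations were tested by exact permutation (scipy 1.17.1). Alternatives were DESeq2 1.42.0, library size scaling, no filter, all treatments in 1 fit, a replicate block, marker scores as covariates, leaving out each rat, and an offset of 1 CPM. On simulated data for cell sheet against untreated MI border zones (16016 genes), 61.1% of genes changed by a log2 fold change of 1 were recovered, with 1.97% false calls. For untreated MI infarct against remote zones 65.7% were recovered, with 6.63% false calls. For the interaction of the sheet effect, border minus remote zone, 40% were recovered, with 5.08% false calls.

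The members, the pathway lists and the marker lists were chosen with earlier results of these data known. Named genes were the members, for each the 5 genes of highest r among 13290 (mean log2 CPM 1 or higher), and per list first those with the smallest adjusted p and those that did not pass. Others named from the lists were picked for their role after their values were seen. Matplotlib 3.10.9 drew the figures. Human transcripts were not analysed here, and whether any were counted on rat genes was not tested.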

Additional observations from a re-analysis of the deposited data

Results flagged for a closer look

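Of 27 groups of 6 libraries examined for a sample far from the others, 2 had one, and chance gives about 1 in 20. Cxcr4 in the remote zone of cell sheet rat 1 was 50.5 CPM, against 25.3 to 31.2 CPM in the other 5 hearts of its group. Ackr3 in the remote zone of sham rat 5 was 76.4 CPM, against 132 to 160 CPM in the other 5. Their marker scores stand with the results above, and their part in these levels was not tested.

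Of 18 differences of an effect between zones, 2 passed by edgeR's interaction test. The effect of infarction on Cxcr4 differed between infarct and remote zone by 0.57 (adjusted p = 0.0494), and that on Ackr3 by −0.98 (adjusted p = 0.00686). Without sham rat 5 these were 0.59 (adjusted p = 0.0717) and −0.95 (adjusted p = 0.0163).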

How the results depend on the processing

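Log2 fold changes are named by their groups (MI–sham for untreated MI against sham, sheet–MI for cell sheet against untreated MI, sheet–sham for cell sheet against sham) or, within a treatment, by their zones. Scaling by library size without TMM factors moved the median of all genes up by more than 0.1 in several comparisons, for example from −0.02 to 0.24 in MI–sham infarct zones, where the share of calls that were higher went from 45.5% to 67.1%, and it turned sign for Cxcl12 (MI–sham infarct 0.12, MI–sham border 0.14), Ackr3 (sheet–sham remote 0.043, sheet effect border minus remote 0.062) and Cxcr4 (sham infarct–border −0.023), lost the call for Cxcl12 (MI–sham remote −0.35) and Ackr3 (sheet–sham infarct −0.44) and gained a call for Cxcr4 (MI–sham remote 0.48, sheet border–remote 0.52), Ackr3 (MI–sham remote 0.57) and Cxcl12 (sheet–sham infarct 0.53, sheet–sham border 0.94, sham infarct–remote −0.19, sheet infarct–remote 0.52, sheet border–remote 0.90). The cardiomyocyte score as a covariate turned sign for Cxcl12 (MI–sham infarct 0.16, MI–sham remote 0.059), Ackr3 (MI–sham infarct 0.45, MI–sham border 0.70, sheet–MI infarct 0.13, sheet–sham infarct 0.058, sheet–sham remote 0.080) and Cxcr4 (sheet–MI infarct −0.16) and lost the call for Cxcr4 (MI–sham infarct 0.24, MI–sham border 0.42, sheet–sham infarct 0.30) and Ackr3 (sheet–MI remote −0.45). The adipocyte score as a covariate lost the call for Cxcl12 (MI–sham remote −0.37), Cxcr4 (sheet–MI border −0.61, sheet–sham infarct 0.74) and Ackr3 (sheet–sham infarct −0.28, sheet–sham border −0.92) and turned sign for Cxcl12 (sheet–MI border −0.13, sheet–sham border −0.53, sheet–MI summed −0.018) and Cxcr4 (sheet–MI summed 0.30). The endothelial score as a covariate gained a call for Ackr3 (MI–sham remote 0.46, sheet–MI border −0.96, sheet–MI summed −0.57) and Cxcr4 (sheet–MI remote −0.55), lost the call for Cxcr4 (sheet–MI border −0.49) and Ackr3 (sheet–sham infarct −0.37) and turned sign for Ackr3 (sheet–sham remote 0.029). Leaving out the filter on low counts lost the call for Cxcl12 (MI–sham remote −0.47) and Ackr3 (sheet–MI remote −0.44, sheet–sham infarct −0.69), gained a call for Ackr3 (sham border–remote 0.24) and turned sign for Cxcr4 (sham infarct–border −0.0017). Fitting all 3 treatments at once lost the call for Ackr3 (sheet–MI remote −0.44, sheet–sham infarct −0.73). Comparing zones without the rat as a block lost the call for Ackr3 (sham infarct–remote 0.33, MI infarct–remote −0.56) and gained a call for Cxcr4 (MI border–remote 0.50) and Cxcl12 (sheet border–remote 0.84). DESeq2 gained a call for Ackr3 (sheet infarct–remote −0.48), Cxcl12 (sheet border–remote 0.67) and Cxcr4 (sheet infarct–border 0.89). An offset of 1 CPM lost the call for Cxcl12/Cxcr4 ratio (MI–sham infarct −1.05, sheet–sham infarct −0.82, MI–sham border −1.01, sheet–MI border 1.36, MI–sham remote −0.82), Cxcl12/Ackr3 ratio (sheet–sham infarct 0.97) and Ackr3/Cxcr4 ratio (MI–sham infarct −1.44, sheet–sham border −0.94). DESeq2 also called 1 pathway gene in place of 0 for sheet–MI infarct zones and 10 in place of 5 on the sums. The cause of these changes was not tested. DESeq2 kept all 30 values between treatments on their side of the threshold and in their direction.

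Rats with the same number in different treatments did not deviate together (median r −0.0917, over 0.1 in 20 of 54 pairs), and the numbers do not pair them. With the number as a block the fits lost the call for Cxcr4 (sheet–MI border −0.67) and Ackr3 (sheet–MI remote −0.42, sheet–sham infarct −0.74) and turned sign for Ackr3 (sheet–sham remote 0.0049). In the other 26 values between treatments the block changed neither call nor direction.

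Leaving out 1 rat at a time kept the call and direction of Cxcr4 in MI–sham infarct and border zones, sheet–MI border and sheet–sham infarct zones, and of Ackr3 in sheet–sham border zones. Ranges over these fits, for results in which a call or direction changed, are given here. Ackr3 differences ran MI–sham infarct −0.74 to −0.32, sheet–MI infarct −0.41 to 0.034, sheet–MI remote −0.51 to −0.35, sheet–sham infarct −0.85 to −0.60, sheet–sham remote −0.14 to 0.031, sham infarct–remote 0.25 to 0.38, sham border–remote 0.14 to 0.31, MI infarct–remote −0.87 to −0.58, sheet infarct–remote −0.58 to −0.33, sheet infarct–border −0.026 to 0.22. Cxcl12 differences ran MI–sham border −0.21 to 0.068, MI–sham remote −0.56 to −0.42, sheet–sham border 0.42 to 0.79, MI infarct–border −0.20 to 0.14, sheet border–remote 0.44 to 0.87. Cxcr4 differences ran MI–sham remote 0.29 to 0.44, sheet–MI remote −0.67 to −0.41, sham infarct–remote −0.040 to 0.10, sham border–remote −0.065 to 0.024, sham infarct–border −0.055 to 0.072, MI infarct–remote 0.44 to 0.71, MI infarct–border −0.00026 to 0.17, sheet border–remote 0.22 to 0.44. Cxcl12/Cxcr4 ratio ran MI–sham infarct −1.26 to −0.95, sheet–sham infarct −0.97 to −0.74, MI–sham border −1.24 to −0.85, sheet–MI border 1.15 to 1.60, MI–sham remote −0.99 to −0.72, sheet–MI remote 0.62 to 0.94, sheet–sham remote −0.27 to 0.11. Cxcl12/Ackr3 ratio ran sheet–sham infarct 0.76 to 1.12, MI–sham border −0.16 to 0.39, sheet–sham border 1.14 to 1.47, MI–sham remote −1.03 to −0.82, sheet–MI remote 0.55 to 0.75. Ackr3/Cxcr4 ratio ran MI–sham infarct −1.78 to −1.20, sheet–sham infarct −2.08 to −1.51, MI–sham border −1.39 to −0.91, sheet–MI border −0.037 to 0.45, sheet–sham border −1.20 to −0.83, MI–sham remote −0.12 to 0.21, sheet–MI remote −0.053 to 0.25, sheet–sham remote −0.050 to 0.31. For differences of an effect between zones 1 rat was left out, sham rat 5 or cell sheet rat 1, and the call lost was that of Cxcr4 (MI effect infarct minus remote 0.59 without sham rat 5). Counts of pathway genes called, without sham rat 5 or cell sheet rat 1, were 60 (MI–sham infarct), 57 (MI–sham border), 48 (MI–sham remote), 48 (sheet–MI remote), 38 to 59 (sheet–sham infarct), 27 to 52 (sheet–sham border) and 2 (sheet–MI sums).

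The members had 357 counts or more in every library.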
